A study of Rattus norvegicus with 30 samples.

Results

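The 7 genes described here carry out the main steps by which cells take up, store and release iron. They are Tf (Entrez Gene 24825), Tfrc (64678), Slc11a2 (25715), Fth1 (25319), Slc40a1 (170840), Cp (24268) and Ireb2 (64831), taken by their rat Entrez Gene identifiers from the 17322 genes of the deposited file. All 7 were found, and 6 of them passed the filter on low values (a group median of at least 0.5 FPKM in a compared group) whichever group was used. Slc40a1 passed it in every comparison too, but its medians at 24.5 dpp and later were below 0.5 FPKM, so against those ages it entered only through the younger or cultured group where it was higher. RNA was sequenced from testes of Wistar Han rats aged 8.5 or 14.5 days postpartum (dpp), when the first wave of spermatogenesis begins, and aged 24.5, 30.5, 36.5 or 53.5 dpp. It was also sequenced from fragments of 8.5 dpp testes after 6 (D6), 16 (D16), 22 (D22) or 28 (D28) days in culture. The cultured fragments lay on agarose between medium and air at 34 °C, in αMEM with serum replacement, retinol and vitamin E. Their nominal ages were therefore 14.5 dpp for D6, 24.5 dpp for D16, 30.5 dpp for D22 and 36.5 dpp for D28. The labels name no treatment or gene alteration in any group. There were 3 libraries per group, each in vivo library from a different testis and each cultured library from explants of several males pooled together, with the necrotic centre of the explants removed. At 14.5 dpp only 2 libraries were used, because the library labelled as an outlier is listed at 0 for every gene.

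Iron circulates bound to transferrin (Tf), which enters cells through the transferrin receptor (Tfrc), and leaves the endosome through the transporter DMT1 (Slc11a2). Inside the cell it is stored in ferritin, whose heavy chain is Fth1, or exported through ferroportin (Slc40a1), and the ferroxidase ceruloplasmin (Cp) oxidises it on export so that transferrin can bind it again. The RNA-binding protein IRP2 (Ireb2) holds back ferritin translation and stabilises Tfrc mRNA when iron is scarce. Behind the blood-testis barrier, Sertoli cells secrete a transferrin of their own, which is thought to carry iron to the germ cells.

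Levels are given in FPKM, the fragments per kilobase of transcript relative to all fragments mapped in that library, so that levels of different genes can be set side by side. Differences are given as a log2 fold change on the log2(FPKM + 1) scale, which understates the change of low genes, with its standard error (SE). A gene was called different at a limma adjusted p-value of at most 0.05 if the group medians also differed at least 2-fold. Between 12520 and 13563 genes per library were above 0, and the Pearson correlation between replicates, across genes that are not independent, ranged from 0.977 to 0.990. The number of reads behind each value is unknown. An exact 0 may be a failed estimate, since Nfs1, which every cell needs to build iron-sulphur clusters, is listed at 0 in every library. In whole tissue, fewer cells of a type and less RNA per cell cannot be told apart.

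The promoters of Tf, Tfrc and Cp are shown because these 3 genes had most of their cultured libraries above every in vivo testis. Each window holds the 250 bases before the RefSeq start site on assembly GRCr8, written 5′ to 3′ on the strand of the gene, with motif letters in capitals. The motifs searched on both strands were the hypoxia core ACGTG, found in 16.6% of 33469 promoter windows of this length, and the TATA box TATAAA, found in 12.9%.
Tf, chr8:112695377-112695626, minus strand: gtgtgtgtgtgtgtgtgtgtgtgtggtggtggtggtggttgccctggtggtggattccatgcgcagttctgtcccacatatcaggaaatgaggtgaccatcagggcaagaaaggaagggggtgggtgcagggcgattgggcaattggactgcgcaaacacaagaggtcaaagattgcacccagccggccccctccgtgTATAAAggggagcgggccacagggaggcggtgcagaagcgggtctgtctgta
Tfrc, chr11:81690319-81690568, minus strand: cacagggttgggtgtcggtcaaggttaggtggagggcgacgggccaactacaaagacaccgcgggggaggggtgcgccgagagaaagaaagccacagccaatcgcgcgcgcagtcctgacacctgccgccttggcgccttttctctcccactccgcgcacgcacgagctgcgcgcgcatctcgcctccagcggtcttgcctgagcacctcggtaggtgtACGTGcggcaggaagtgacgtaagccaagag
Cp, chr2:104368420-104368669, plus strand: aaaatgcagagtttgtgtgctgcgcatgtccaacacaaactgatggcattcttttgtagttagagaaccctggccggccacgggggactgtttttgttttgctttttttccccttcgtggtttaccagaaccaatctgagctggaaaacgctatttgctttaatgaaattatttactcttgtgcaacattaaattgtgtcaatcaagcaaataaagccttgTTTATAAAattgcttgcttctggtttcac
The window of Tf held TATAAA from position -52, counted from the start site, and that of Tfrc held ACGTG from position -31. The window of Cp held TATAAA from -27 and its reverse complement TTTATA from -29, which overlap. The windows of Slc11a2, Ireb2 and Slc40a1 held neither motif. These are matches of letters, and no binding was measured.

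**Figure D1:**
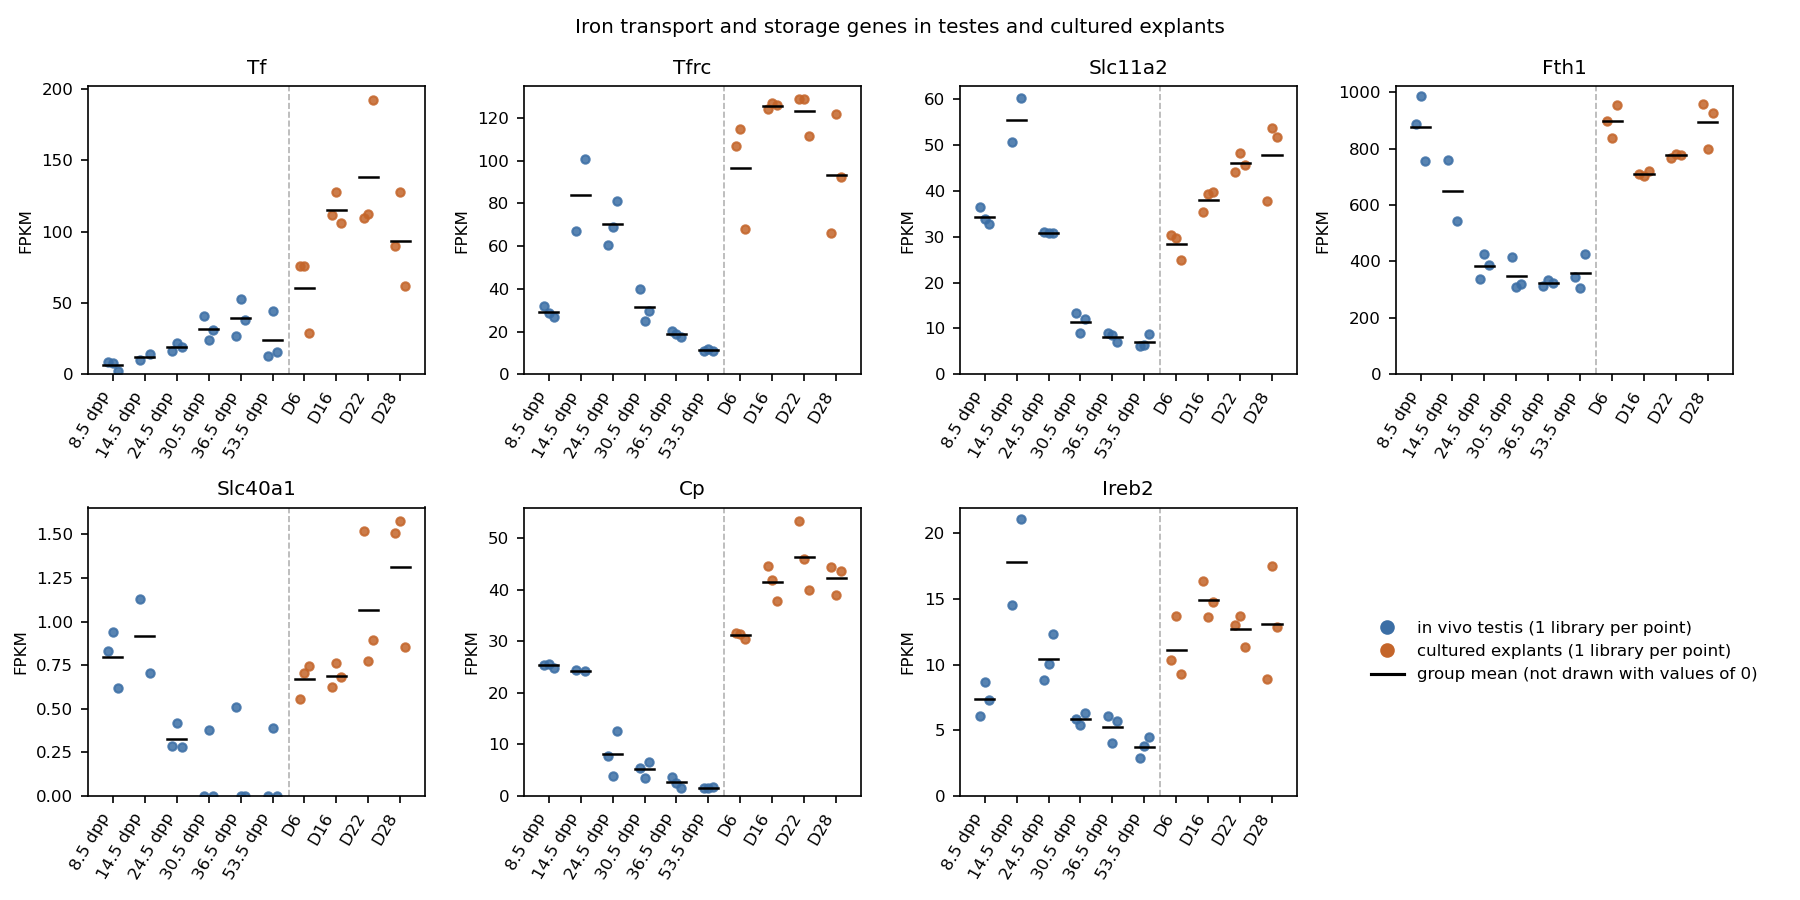
Level of each gene in FPKM (vertical axes, from 0) in every library of the 6 in vivo ages (blue) and the 4 culture times (orange), with group means as lines. Cp in all 12 cultured libraries, Tf in 11 of 12 and Tfrc in 9 of 12 lay above every in vivo library, while Fth1, Slc11a2 and Ireb2 in culture stayed within the in vivo range. The share of all genes with such separation was not counted.

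Tf, the iron carrier, was lowest in the youngest testes and highest in culture. Its levels were 8.29, 8.20 and 2.21 FPKM at 8.5 dpp, and 10.2 and 13.9 FPKM at 14.5 dpp. At 24.5 dpp they were 16.3, 21.9 and 19.2 FPKM, at 30.5 dpp 41.0, 23.9 and 31.3 FPKM, at 36.5 dpp 27.1, 53.0 and 37.9 FPKM, and at 53.5 dpp 12.7, 44.2 and 15.5 FPKM. The first 3 ages did not overlap one another or 30.5 dpp, the last 3 ages overlapped, and 1 library of 53.5 dpp stood well above the other two. In culture, Tf was at 75.9, 76.1 and 28.8 FPKM at D6, and at 112, 128 and 106 FPKM at D16. It was at 110, 113 and 193 FPKM at D22, and at 90.1, 128 and 62.0 FPKM at D28. Ordered by mean, D22, D16, D28 and D6 came first, and each of these groups overlapped the next. A single cultured library, the third of D6, fell within the in vivo range.

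Tfrc, which takes up iron-loaded transferrin, peaked in vivo at 14.5 and 24.5 dpp. Its levels were 32.2, 28.9 and 26.8 FPKM at 8.5 dpp, 67.2 and 101 FPKM at 14.5 dpp, and 60.3, 68.9 and 81.2 FPKM at 24.5 dpp. They were 39.8, 25.1 and 29.8 FPKM at 30.5 dpp, 20.1, 18.8 and 17.3 FPKM at 36.5 dpp, and 11.1, 12.0 and 10.9 FPKM at 53.5 dpp. The ages of 36.5 and 53.5 dpp each stood apart from the group above, whereas 8.5 and 30.5 dpp overlapped. In culture, Tfrc was at 107, 115 and 68.0 FPKM at D6, and at 124, 127 and 126 FPKM at D16. It was at 129, 129 and 112 FPKM at D22, and at 65.9, 122 and 92.3 FPKM at D28. The 4 culture times were the highest groups by mean and overlapped in sequence, and D6 and D28 also overlapped both 14.5 and 24.5 dpp.

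Slc11a2, the exporter of iron from endosomes, was highest in the 14.5 dpp testes. Its levels were 36.4, 33.9 and 32.7 FPKM at 8.5 dpp, 50.7 and 60.1 FPKM at 14.5 dpp, and 31.0, 30.8 and 30.8 FPKM at 24.5 dpp. They were 13.3, 9.04 and 12.0 FPKM at 30.5 dpp, 8.90, 8.51 and 7.10 FPKM at 36.5 dpp, and 6.15, 6.28 and 8.89 FPKM at 53.5 dpp. The libraries of 24.5 and 30.5 dpp did not overlap, and the last 2 ages overlapped each other. In culture, Slc11a2 was at 30.3, 29.7 and 25.0 FPKM at D6 and at 35.3, 39.2 and 39.7 FPKM at D16. The D22 libraries were at 44.2, 48.3 and 45.6 FPKM and those of D28 at 37.7, 53.6 and 51.8 FPKM. D28 overlapped both D22 and 14.5 dpp, and D16 overlapped 8.5 dpp.

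Fth1, the ferritin heavy chain, was the most abundant of these mRNAs in every library. Its levels were 889, 988 and 756 FPKM at 8.5 dpp, 759 and 545 FPKM at 14.5 dpp, and 338, 426 and 389 FPKM at 24.5 dpp. From there the groups overlapped, with libraries between 307 and 426 FPKM from 24.5 to 53.5 dpp. In culture, Fth1 was at 898, 838 and 955 FPKM at D6 and at 710, 704 and 720 FPKM at D16. The D22 libraries were at 768, 782 and 778 FPKM and those of D28 at 957, 800 and 925 FPKM. All 12 cultured libraries lay above every testis of 24.5 dpp or older, and D6 and D28 overlapped 8.5 dpp. The rat genome may hold processed copies of ferritin genes, and reads of 50 bp could be split among them, so the level of Fth1 is uncertain to that extent.

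Slc40a1, the only known exporter of iron from cells, was low in every group. It was at 0.831, 0.941 and 0.618 FPKM at 8.5 dpp, 1.13 and 0.703 FPKM at 14.5 dpp, and 0.283, 0.415 and 0.277 FPKM at 24.5 dpp. It is listed at 0 in 2 libraries of every later age, and the remaining library was at 0.376 FPKM at 30.5 dpp, 0.507 FPKM at 36.5 dpp and 0.388 FPKM at 53.5 dpp. In culture, Slc40a1 was at 0.556, 0.707 and 0.745 FPKM at D6 and at 0.624, 0.760 and 0.681 FPKM at D16. The D22 libraries were at 1.52, 0.776 and 0.896 FPKM and those of D28 at 1.51, 1.58 and 0.852 FPKM. Every cultured library was above every testis of 24.5 dpp or older, and 3 of 12 were above all in vivo libraries.

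Cp, the ferroxidase, was the gene whose cultured and in vivo libraries did not overlap at all. Its levels were 25.4, 25.6 and 24.9 FPKM at 8.5 dpp, 24.3 and 24.2 FPKM at 14.5 dpp, and 7.73, 3.91 and 12.6 FPKM at 24.5 dpp. They were 5.44, 3.45 and 6.49 FPKM at 30.5 dpp, 3.64, 2.54 and 1.59 FPKM at 36.5 dpp, and 1.52, 1.44 and 1.75 FPKM at 53.5 dpp. From 24.5 dpp on, neighbouring ages overlapped. In culture, Cp was at 31.6, 31.4 and 30.4 FPKM at D6 and at 44.6, 41.9 and 37.9 FPKM at D16. The D22 libraries were at 53.3, 46.0 and 39.8 FPKM and those of D28 at 44.3, 39.0 and 43.6 FPKM. The lowest cultured library (30.4 FPKM) was above the highest testis (25.6 FPKM), and D16, D22 and D28 overlapped one another and lay above D6.

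Ireb2, the iron sensor, was highest in the 14.5 dpp testes, at 14.5 and 21.1 FPKM, against 6.07, 8.68 and 7.31 FPKM at 8.5 dpp. It was at 8.84, 10.1 and 12.3 FPKM at 24.5 dpp, and between 2.91 and 6.31 FPKM in the 9 testes of 30.5 to 53.5 dpp. In culture, Ireb2 was at 10.3, 13.7 and 9.27 FPKM at D6 and at 16.3, 13.7 and 14.8 FPKM at D16. The D22 libraries were at 13.1, 13.7 and 11.4 FPKM and those of D28 at 8.93, 17.5 and 12.9 FPKM. From 14.5 dpp through the 4 culture times to 24.5 dpp, each group overlapped the next in the order of means.

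During maturation in vivo, Tfrc and the sensor Ireb2 rose early, Tf rose from 24.5 dpp, and Fth1, Slc40a1 and Cp fell from 24.5 dpp. Against 8.5 dpp, Tfrc (log2 fold change 1.47, SE 0.19, limma adjusted p = 5.71e-05) and Ireb2 (1.16, SE 0.20, adjusted p = 0.000528) were higher at 14.5 dpp, where 8.37% of all 12531 genes tested were called higher. Without the second 14.5 dpp library the call of Ireb2 was lost. At 24.5 dpp, where 21.5% of all genes were called higher and 23.8% lower, Tf and Tfrc were higher and Fth1, Slc40a1 and Cp were lower. Fth1 lost its 2-fold ratio at this age under quantile normalization. The call of Slc40a1 at this age (adjusted p = 0.0458) was lost in 9 of 25 alternatives, with adjusted p-values up to 0.236, among them those without either of the first 2 libraries of 8.5 dpp, any library of 24.5 dpp or the third of 30.5 dpp.

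At the later ages the median log2 fold change of all genes against 8.5 dpp was -0.32 at 30.5 dpp, -0.50 at 36.5 dpp and -0.74 at 53.5 dpp. At 30.5 dpp (25.2% of all genes higher, 38.2% lower) and again at 36.5 dpp (25.3% higher, 43.4% lower), Tf was higher and Fth1, Slc11a2 and Cp were lower, as was Slc40a1, which had passed the filter through the younger testes only. At 53.5 dpp, Tfrc, Fth1, Slc11a2 and Cp were lower, which is 4 of the 6 genes besides Slc40a1 against 50.2% of all genes called lower, and Slc40a1 was called lower too. Cp fell most, by 3.36 on the log2 scale at 53.5 dpp (SE 0.30, limma adjusted p = 4.55e-08), to a median 16.7-fold lower than at 8.5 dpp, and relative to the median of all genes it fell by 2.62. Slc11a2 fell by 2.14 (SE 0.15, limma adjusted p = 2.16e-09), or by 1.40 relative to that median. For Fth1 and Tfrc the log2 fold changes were both -1.29 (SE 0.16 and 0.17), or -0.55 relative to the median of all genes. Both lost their 2-fold ratio under upper quartile scaling, and Tfrc also under quantile normalization. For Slc40a1, with a median listed at 0, no fold can be given, and its log2 difference relative to the median of all genes was 0.06. Tf was 2.58 higher on the log2 scale at 36.5 dpp (SE 0.45, limma adjusted p = 8.02e-05). At 53.5 dpp its log2 fold change of 1.74 (SE 0.45, adjusted p = 0.00219) came with a ratio of medians of 1.89, below the 2-fold limit, and it was called in 7 of 26 alternatives, including both other scalings and those without replicates 1 or 3 of 53.5 dpp or replicates 1 or 2 of 8.5 dpp. The log2 fold change of Ireb2 at 53.5 dpp was -0.82 (SE 0.18, adjusted p = 0.000611) with a ratio of medians of 0.524, and -0.08 relative to the median of all genes. It crossed the 2-fold limit without replicate 1 of 8.5 dpp or replicate 3 of 53.5 dpp, and shrank to -0.02 under an alternative scaling.

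Over the same ages, the summed level of 10 Sertoli cell markers was 1013 to 1223 FPKM at 8.5 dpp, 1781 to 2707 FPKM at 24.5 dpp and 303 to 435 FPKM at 53.5 dpp. The higher sum at 24.5 dpp rests on Clu (clusterin), the most abundant of them, which was at 153 to 185 FPKM at 8.5 dpp and 1366 to 2083 FPKM at 24.5 dpp. Without Clu, left out after its values were seen, the other 9 markers summed to 847 to 1071 FPKM at 8.5 dpp, 405 to 624 FPKM at 24.5 dpp and 78.9 to 89.1 FPKM at 53.5 dpp. Germ cell markers, 9 of 10 in the file, summed to 30.5 to 34.0 FPKM at 8.5 dpp and 11288 to 16836 FPKM at 53.5 dpp. The 5 peritubular markers summed to 684 to 731 FPKM at 8.5 dpp and 33.9 to 43.0 FPKM at 53.5 dpp, and the 6 of 7 erythroid markers in the file to 903 to 1443 FPKM and 27.2 to 63.0 FPKM. The part of these cell types in the changes of the iron genes was not tested.

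How far the explants departed from their starting tissue was read against 8.5 dpp. Tf and Tfrc were higher at all 4 culture times, where 9.90% of 11539 genes were called higher at D6, 12.4% at D16 and 13.6% at both D22 and D28. For Tf the log2 fold change was 3.11, 4.16, 4.37 and 3.80 in order of time (SE 0.45, limma adjusted p from 2.72e-06 to 8.87e-05), with medians 9.26, 13.6, 13.7 and 10.99 times that of 8.5 dpp. For Tfrc it was 1.66, 2.07, 2.04 and 1.60 (SE 0.21, limma adjusted p from 2.60e-06 to 2.82e-05). Ireb2 was also called at D16 (0.94, SE 0.20, adjusted p = 0.00136), with a ratio of medians of 2.02 that fell below 2 in 4 of 24 alternatives, 2 of them those without the first library of 8.5 dpp or of D16. Cp passed the adjusted p-value alone at every culture time, as 27.7%, 31.8%, 32.5% and 32.1% of all genes did in that direction, with ratios of medians between 1.24 and 1.81, below the 2-fold limit. Ireb2 passed it alone at D6, D22 and D28 too (adjusted p = 0.0436, 0.00721 and 0.00726), with ratios of medians of 1.41, 1.79 and 1.76. Slc11a2 passed at D22 (adjusted p = 0.0101) and D28 (0.00617), with ratios of 1.34 and 1.53, and Slc40a1 at D28 (0.0491), with a ratio of 1.82. For Fth1 the difference was 0.04 at D6, then -0.17 at D22, and 0.03 at D28 (SE 0.10, adjusted p from 0.154 to 0.806). At D16 it was -0.30 (adjusted p = 0.0204), with a direction that turned positive under an alternative scaling, up to 0.11.

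The study set the later cultures against the 14.5 dpp testes to ask which genes depart from an early stage of the first wave. Of the 7 genes only Tf was called, higher at each of D16, D22 and D28, against 6.56%, 7.34% and 7.64% of 11517 genes called higher. The differences, in order of time, were 3.16, 3.38 and 2.81 on the log2 scale (SE 0.31, limma adjusted p from 7.88e-05 to 0.000159), and its median was 9.26, 9.34 and 7.47 times that of 14.5 dpp. Tf belongs to a list of genes that the study selected on these same libraries, so this call is not independent evidence of its direction. Cp passed the F test of limma (adjusted p = 0.00272) but not the 2-fold limit, with log2 fold changes of 0.75, 0.90 and 0.77 (SE 0.13). Without the third D22 library its ratio at D22 passed 2. Neither Tfrc (0.60, 0.57 and 0.13, SE 0.23) nor Ireb2 (-0.22, -0.44 and -0.44, SE 0.24) passed. For Slc11a2 the log2 fold changes were -0.53, -0.26 and -0.22 (SE 0.15), for Fth1 0.15, 0.27 and 0.47 (SE 0.14), and for Slc40a1 -0.18, 0.10 and 0.26 (SE 0.19), and none of these passed the F test (adjusted p from 0.0740 to 0.214). The contrasts of Slc11a2 at D16 (adjusted p = 0.0234) and Fth1 at D28 (adjusted p = 0.0202) passed 0.05 by themselves, below 2-fold. These 3 comparisons share the 14.5 dpp libraries.

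**Figure D2:**
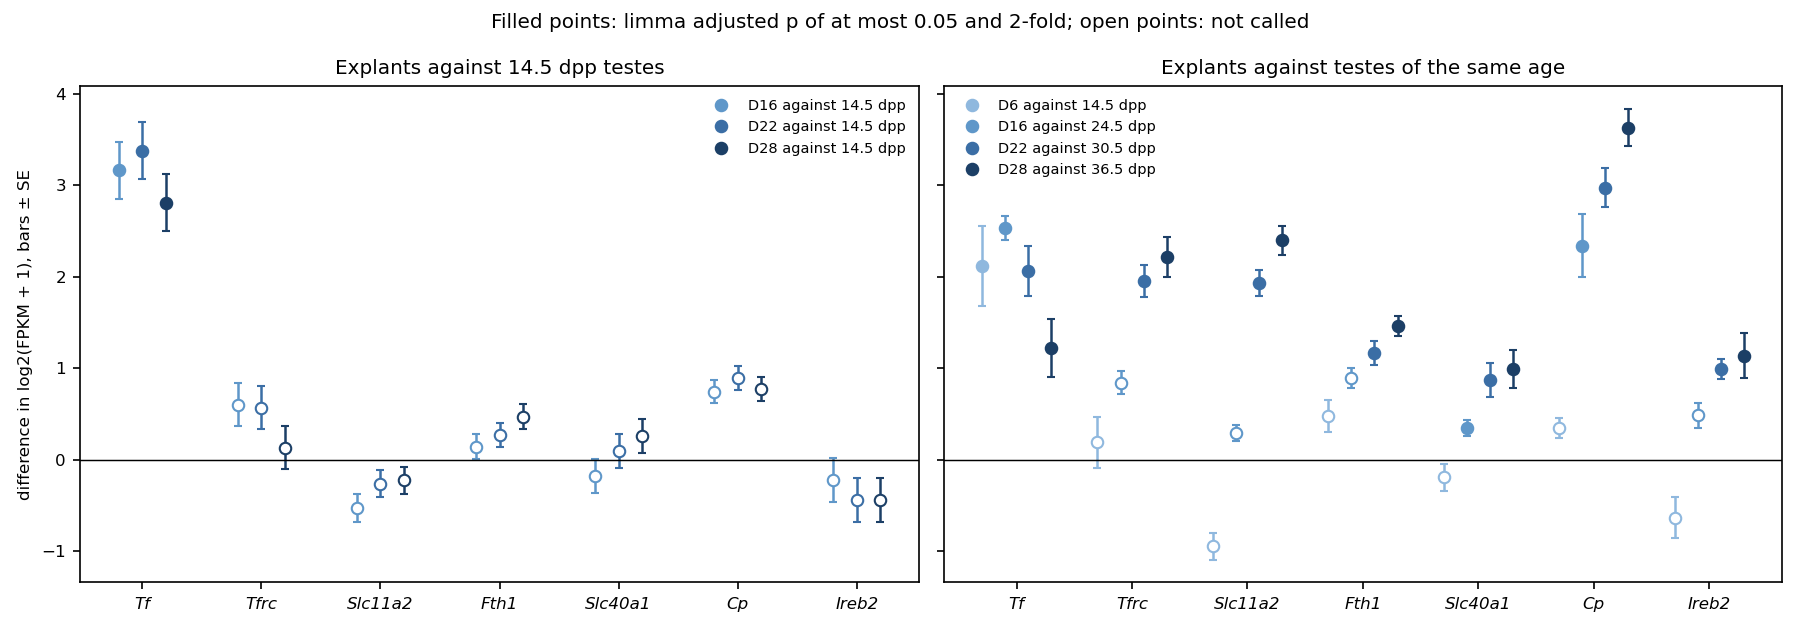
Difference in log2(FPKM + 1) of each gene, with bars of ± SE from limma, between explants and 14.5 dpp testes (left) and between explants and testes of the same age (right). Filled points were called and open points were not. On the left only Tf is filled, and on the right all 7 genes are filled at D22 and D28, Slc40a1 having passed the filter through the cultured libraries only.

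Against testes of the same age, Tf was called at D6, Tf and Cp at D16, and Tf, Tfrc, Slc11a2, Fth1, Cp and Ireb2 at D22 and D28. Slc40a1 was called as well at D16, D22 and D28, where it had passed the filter only through the cultured libraries. At D6, where 5.57% of 11309 genes were called higher, Tf was higher than at 14.5 dpp (log2 fold change 2.12, SE 0.44, limma adjusted p = 0.0292). This call was lost without either 14.5 dpp library, without the first or second D6 library and with no filter on low values, with adjusted p-values up to 0.111. Slc11a2 was lower at D6 (-0.94, SE 0.15, adjusted p = 0.0141), with a ratio of medians of 0.536, short of 2-fold. Without the first 14.5 dpp library or the second D6 library it crossed that limit.

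At D16, where 25.3% of 11658 genes were called higher, Tf (2.53, SE 0.13), Cp (2.34, SE 0.34) and Slc40a1 (0.35, SE 0.09) were higher than at 24.5 dpp (limma adjusted p = 1.32e-05, 0.000818 and 0.0107). Slc40a1 had a median of 0.283 FPKM at 24.5 dpp and 0.681 FPKM at D16, and its call was lost without replicate 1 or replicate 3 of 24.5 dpp and in a fit of all groups. The other 4 genes passed the adjusted p-value, as 40.5% of all genes did in the same direction, with ratios of medians between 1.27 and 1.83.

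At D22 against 30.5 dpp and at D28 against 36.5 dpp, the 6 genes besides Slc40a1 were higher, where 42.1% of 12118 and 46.7% of 12210 genes were called higher. The median log2 fold change of all genes was itself 0.51 at D22 and 0.64 at D28, against 0.12 at D16. Cp differed most, by 3.63 at D28 (SE 0.21, limma adjusted p = 2.14e-06), a ratio of medians of 17.2, and by 2.99 relative to the median of all genes. Slc11a2 was 2.40 higher (SE 0.16, limma adjusted p = 5.02e-06), or 1.75 relative to that median, and Tfrc 2.22 (SE 0.21, limma adjusted p = 3.57e-05), or 1.57. For Fth1 the difference was 1.46 (SE 0.11), or 0.82 relative to the median, and for Tf 1.22 (SE 0.32), or 0.57. Ireb2 was 1.138 higher (SE 0.24), or 0.49 relative to the median. Slc40a1 was 0.997 higher on the log2(FPKM + 1) scale (SE 0.21), or 0.35 relative to the median, with no ratio because its median at 36.5 dpp is listed at 0, which may be a failed estimate. The call of Tf lost its 2-fold ratio without the first 36.5 dpp library and under upper quartile scaling, and that of Ireb2 without the second D28 library and, at D22 as well, under both other scalings. For all 7 genes, Slc40a1 included, every library of D16, D22 and D28 lay above every testis of the same age. The share of all genes that separate in this way was not counted, so this describes single genes only.

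Beside these differences, Sertoli cell markers summed to 3878 to 4582 FPKM at D28 and 490 to 632 FPKM at 36.5 dpp. Germ cell markers summed to 60.0 to 127 FPKM at D28, where the spermatid genes Tnp1, Prm1 and Acrv1 were at 0, and to 2984 to 4381 FPKM at 36.5 dpp. The 10 macrophage markers, a cell type that recycles iron, summed to 135 to 213 FPKM at D28 and 27.2 to 36.6 FPKM at 36.5 dpp, with Cd163 and Marco at 0 at D28. Endothelial markers (5 genes) summed to 47.3 to 71.7 FPKM against 2.51 to 5.498 FPKM, and peritubular markers to 105 to 138 FPKM against 33.6 to 96.7 FPKM. Leydig cell markers (6 genes) summed to 24.4 to 36.8 FPKM against 227 to 379 FPKM, and erythroid markers were at 4.80 to 9.07 FPKM against 52.1 to 125 FPKM. For each of these 7 lists the libraries of D28 and 36.5 dpp did not overlap, and the part of these cell types in the differences was not tested.

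Within the culture, every D28 library was above every D6 library for Slc40a1, Slc11a2 and Cp, and the other 4 genes overlapped. The share of all genes that separate in this way was not counted. Slc40a1 was called higher at D28 (log2 fold change 0.46, SE 0.15, limma adjusted p = 0.0485), where 3.04% of 11358 genes were called higher, but this call was lost in 14 of 21 alternatives, with adjusted p-values up to 0.139, including those without any 1 library of D6 or D16, the third of D22, or the first or second of D28. Slc11a2 (0.72, SE 0.13, adjusted p = 0.00274) and Cp (0.43, SE 0.11, adjusted p = 0.0155) passed the adjusted p-value alone, with ratios of medians of 1.74 and 1.39. The log2 fold change was -0.06 for Tfrc (SE 0.22), -0.01 for Fth1 (SE 0.08), 0.19 for Ireb2 (SE 0.20) and 0.69 for Tf (SE 0.38), and none of these passed (limma adjusted p from 0.211 to 0.964).

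The change from D6 to D28 was also set against that in vivo from 14.5 to 36.5 dpp, the same nominal ages. The difference between both changes was called for 6 of the 7 genes, all but Tf and all with the higher value in culture, where 38.0% of 12482 genes were called in that direction. These 6 include Slc40a1, whose median at 36.5 dpp is listed at 0, so that it passed the filter only through the other groups, where it was higher. Cp and Slc11a2 differed most, with log2 changes of -2.86 and -2.62 in vivo against 0.43 and 0.72 in culture.

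The balance between the genes also shifted with age. In vivo, the ratio of Tf to Tfrc was 0.208 ± 0.109 at 8.5 dpp (SD, n = 3), 0.145 ± 0.00951 at 14.5 dpp (SD, n = 2) and 2.12 ± 0.738 at 36.5 dpp (SD, n = 3). In culture it was 0.599 ± 0.153 at D6, 0.916 ± 0.0833 at D16 and 1.03 ± 0.348 at D28 (SD, n = 3), and the D28 libraries overlapped those of 30.5 dpp and 36.5 dpp. The ratio of Tfrc to Fth1, uptake over storage, was 0.0336 ± 0.00380 at 8.5 dpp, 0.183 ± 0.0239 at 24.5 dpp and 0.0323 ± 0.00667 at 53.5 dpp (SD, n = 3). At D16 it was 0.177 ± 0.00309, within the 24.5 dpp range, and at D28 it was 0.107 ± 0.0420, above each of the 36.5 dpp libraries, which were between 0.0531 and 0.0644. Ftl1, the ferritin light chain, gave a ratio of Fth1 to Ftl1 of 15.3 ± 2.07 at 8.5 dpp and between 10.7 and 11.9 in the mean of each culture time. At 36.5 dpp the ratio was 25.2 ± 2.05 (SD, n = 3). Ftl1 is listed at 0 in 2 libraries of 24.5 dpp, 2 of 30.5 dpp and 1 of 53.5 dpp, which were left out of this ratio.

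**Figure D3:**
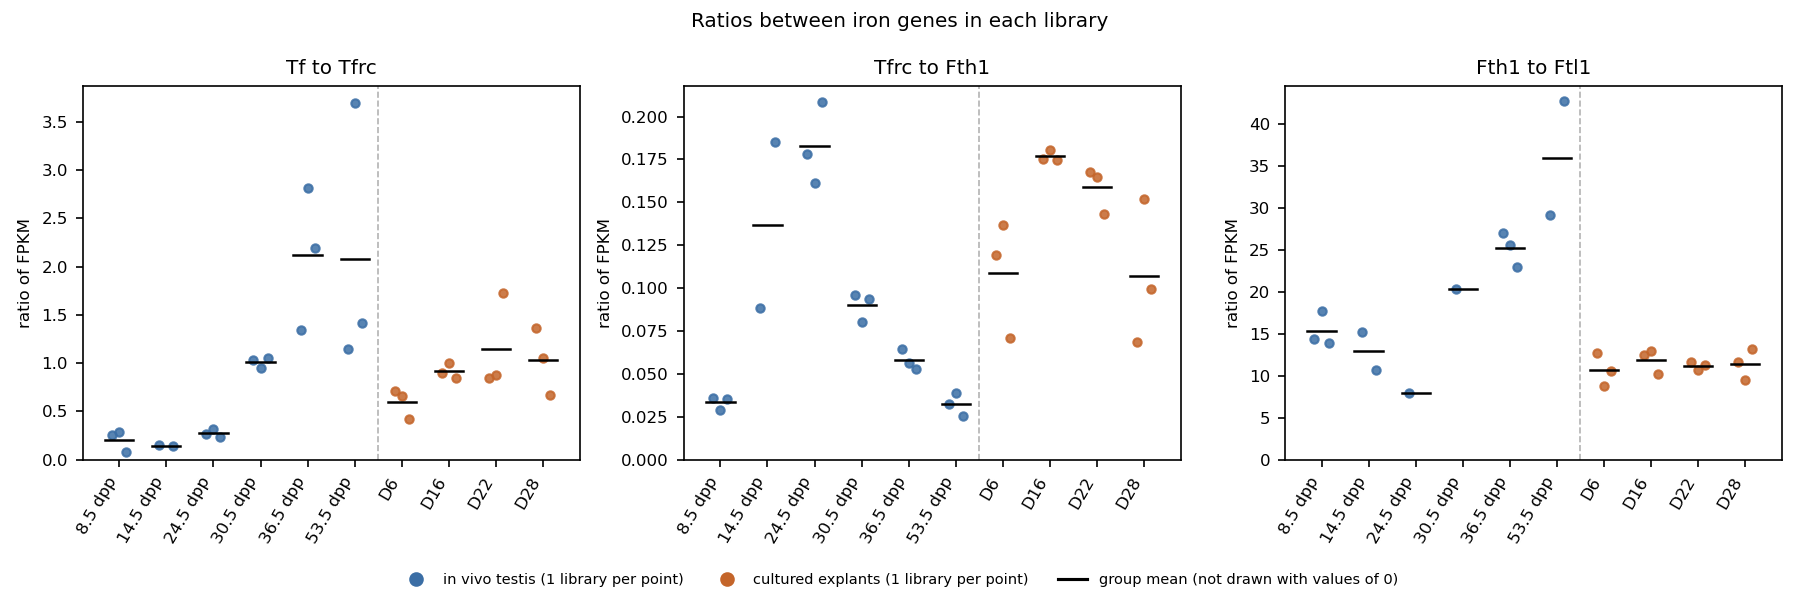
Ratio of FPKM of Tf to Tfrc, Tfrc to Fth1 and Fth1 to Ftl1 (vertical axes, from 0) in each library of the in vivo ages (blue) and culture times (orange), with group means as lines. The ratio of Tfrc to Fth1 had its highest mean at 24.5 dpp in vivo and at D16 in culture.

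The other iron and haem genes, 41 in the file, gave a wider view of the same pathways. Against 14.5 dpp, 32 of them were tested, with 1 called higher at D16 and 3 higher and 1 lower at both D22 and D28. That is beside 6.56% of all genes higher and 5.35% lower at D16, 7.34% and 5.51% at D22, and 7.64% and 6.00% at D28. Their median log2 fold change at D28 was 0.12, against -0.08 for all genes. Steap4, a metalloreductase that reduces iron and copper, was called at all 3 times (1.12, 1.64 and 1.86, SE 0.35, limma adjusted p from 0.00248 to 0.0321), and its level was 1.59 and 2.21 FPKM at 14.5 dpp and 9.96 ± 3.97 FPKM at D28 (SD, n = 3). At D28 against 36.5 dpp, 22 of 34 genes tested were higher and 5 were lower, with a median of 1.141 against 0.64 for all genes, of which 46.7% were higher and 23.6% lower. By role, 9 of 10 uptake genes were higher and 1 lower, 1 of 4 storage and release genes was higher and 2 lower, and the 1 export gene tested, Heph, was higher. Of the sensing and hormone genes 3 of 5 were higher and 1 lower, of the mitochondrial iron and iron-sulphur genes 4 of 7 were higher, and of the haem genes 4 of 7 were higher and 1 lower. Among the uptake, storage and export genes, Tfr2, Cybrd1 and Heph passed the filter only through D28, and Ftmt only through 36.5 dpp. For these genes the filter set the direction in advance, so their calls add nothing to the counts as evidence. Only 4 sensing and hormone genes were tested at D28 against 14.5 dpp, so at least 1 of the 5 passed only through 36.5 dpp. Genes of the sensing, mitochondrial and haem lists that passed in this way are not singled out here. The counts of those lists, and of all 34 genes, may therefore include more calls set by the filter.

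Among the genes with the largest differences at D28, Slc39a14, a transporter of iron that is not bound to transferrin, was at 28.3 ± 2.78 FPKM against 2.37 ± 0.0394 FPKM at 36.5 dpp (SD, n = 3), a log2 fold change of 3.11 (SE 0.11, limma adjusted p = 1.69e-07). Slc22a17, the receptor of lipocalin 2, was 3.18 higher (SE 0.19), and Slc46a1, a carrier of folate and haem, was 2.97 higher (SE 0.12). Heph, a ferroxidase related to Cp, was at 7.06 ± 0.278 FPKM against 0.173 ± 0.0435 FPKM (SD, n = 3), and at 16.1 ± 0.941 FPKM at 8.5 dpp, so that it passed the filter in this comparison only through D28. Ftl1 was 2.52 higher (SE 0.12), and Aco1, which encodes the iron sensor IRP1, was 2.48 higher (SE 0.10). The level of Ftl1 in older testes is uncertain, since it is listed at 0 in 2 of 3 libraries at both 24.5 and 30.5 dpp. Ftmt, mitochondrial ferritin, was lower at D28. It was at 70.9 ± 4.44 FPKM at 36.5 dpp (SD, n = 3), below 0.4 FPKM in all libraries of 24.5 dpp or younger, and at no more than 0.0293 FPKM in any cultured library. Against 8.5 dpp, 35 of the 41 genes were tested at 53.5 dpp, and 6 were higher and 19 lower, beside 23.7% of all genes higher and 50.2% lower, with a median of -0.94 against -0.74 for all genes. Among the uptake, storage and export genes tested, Cybrd1 and Heph had medians below 0.5 FPKM at 53.5 dpp, and Ftmt at 8.5 dpp. These genes passed the filter through other ages. Of the sensing and hormone genes, 7 were tested here but only 5 at D28 against 36.5 dpp, so some had medians below 0.5 FPKM at 36.5 dpp. Genes of the other lists that passed through other ages are not singled out, so the counts may include further calls set by the filter.

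**Figure D4:**
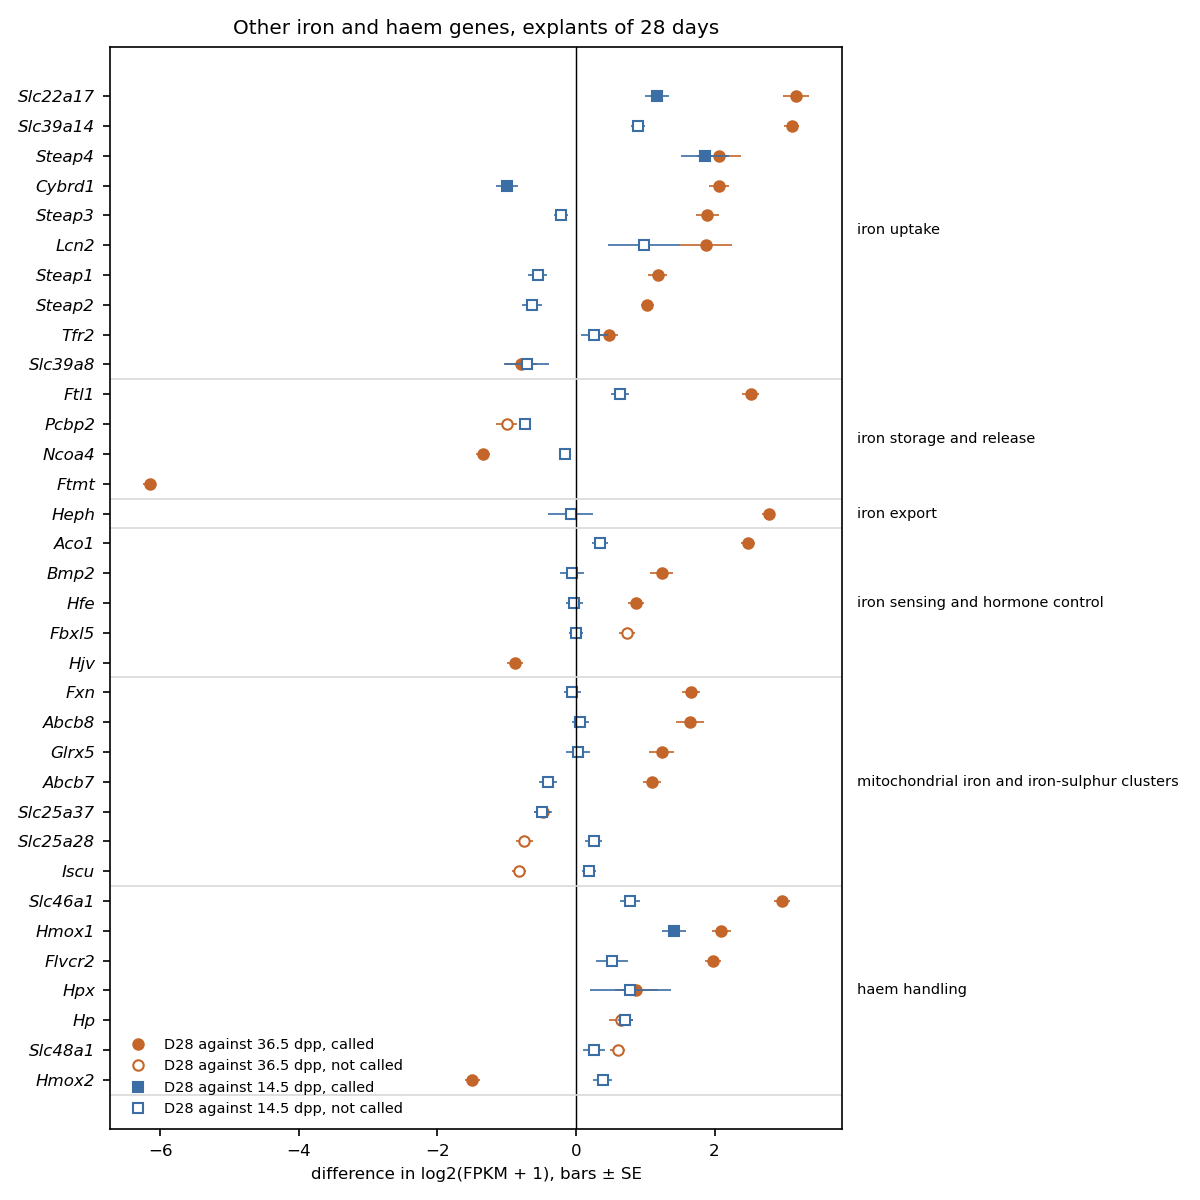
Difference in log2(FPKM + 1) of 34 other iron and haem genes, grouped by role, between D28 explants and testes of 36.5 dpp (orange circles) or 14.5 dpp (blue squares), with bars of ± SE from limma. Filled symbols were called. Most orange circles lie right of 0 and most blue squares near it, and Ftmt lies farthest left.

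The patterns of the 7 genes were compared with those of 12096 named genes by Pearson's r of log2(FPKM + 1) over the 29 libraries, as a description, since libraries of a group share age and culture. Genes most like Cp were Bgn (r = 0.988), Cers4 (0.987) and Nbl1 (0.987), and those most like Tfrc were Wasl (0.989), Gca (0.985) and Gatm (0.983). Slc11a2 was nearest to Mybph (0.988), Mapkapk3 (0.984) and Arl8a (0.984), and Fth1 to Wnt9a (0.969), Cmtm3 (0.969) and Tmem120b (0.965). Ireb2 was nearest to Ccnt2 (0.955), Uba6 (0.954) and Mitf (0.954), Tf to Dlgap1 (0.904), Slc7a6 (0.901) and Dgka (0.897), and Slc40a1 to P2ry2 (0.891), Prr13 (0.880) and Fbxl8 (0.877). Among the 7 genes, Tfrc and Ireb2 were the most alike (r = 0.926), followed by Slc11a2 and Cp (0.905), whereas Tf was the least like the others, with r from 0.210 (Slc11a2) to 0.566 (Tfrc).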

How the data were processed

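mRNA libraries were made with a stranded kit and sequenced as 50 bp single reads. According to the submitters' processing notes and the study's methods, the authors used bcl2fastq 2.17.1.14, aligned reads with STAR 2.5.2a to rn6 with RefSeq annotation, and deposited 1 table of FPKM, which the study calls RPKM. Read counts were not used here, so depth is unknown. A library's FPKM are relative, so large changes in abundant transcripts move those of other genes. Of 30 deposited libraries, 29 were used, and the outlier of 14.5 dpp was left out.

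Symbols came from a RefSeq gene table (assembly GRCr8), which matched 17172 of 17322 Entrez identifiers, and promoters from RefSeq on GRCr8. Promoters of 6 of the 7 genes were found, Slc11a2 with 2 windows, and Fth1 was not in the table. The 7 genes and all lists were chosen with earlier results of these data known.

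FPKM were transformed to log2(FPKM + 1), and genes with a group median of at least 0.5 FPKM in a compared group were tested with limma 3.58.1 in R 4.3.3, with Benjamini-Hochberg adjustment over all genes tested. Calls needed medians at least 2-fold apart besides an adjusted p no higher than 0.05. D16, D22 and D28 against 14.5 dpp used the F test of 1 fit of the 4 groups. Each comparison with testes of the same age had its own fit. In vivo ages and cultures against 8.5 dpp, and D28 against D6, used contrasts of joint fits. The difference between the change from D6 to D28 and that from 14.5 to 36.5 dpp was tested as an interaction, and called at a difference of at least 1 in log2 medians. Fits were tested on simulated data. The main fits did not treat libraries of the same replicate number as paired, and whether they share a source is unknown. The p-values measure the spread between libraries only. Other iron and haem genes were named where called at D16, D22 and D28 against 14.5 dpp, where among the 6 largest called at D28 against 36.5 dpp, or as partners (Ftl1 and Aco1). Marker lists were summed in FPKM per library. Alternatives changed the pseudocount, the filter, the fold limit, the prior variance, the scaling, the groups in the fit, a replicate block and single libraries. Figures used Python 3.11.15 with matplotlib 3.10.9.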

Additional observations from a re-analysis of the deposited data

Results flagged for a closer look

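For 6 of the 7 genes, the change in culture from D6 to D28 differed from the change in vivo between the same nominal ages, 14.5 and 36.5 dpp, by an interaction test in limma. Across all 12482 genes tested, 38.0% were called in the direction of these 6, and the median difference of all genes was 0.63 on the log2 scale. Slc11a2 differed by 3.34 (SE 0.23, limma adjusted p = 4.59e-07), with a change of 0.72 in culture and -2.62 in vivo, and Cp by 3.28 (SE 0.26, limma adjusted p = 1.39e-06), with 0.43 in culture and -2.86 in vivo. Tfrc differed by 2.03 (SE 0.38, limma adjusted p = 0.000738), with -0.06 and -2.08, and Ireb2 by 1.77 (SE 0.37, limma adjusted p = 0.00135), with 0.19 and -1.58. Slc40a1 differed by 1.19 (SE 0.28, limma adjusted p = 0.00289), with 0.46 and -0.73, where 2 of 3 libraries of 36.5 dpp are listed at 0. Because Slc40a1 passed the filter only through the other groups, where it was higher, it adds nothing as evidence to the count of 6. Fth1 differed by 0.98 (SE 0.19, limma adjusted p = 0.000947), with -0.01 and -0.99, or 0.35 relative to the median of all genes, and it fell short of the limit of 1 in log2 medians in 5 of 20 alternatives, including those without the first library of 14.5 dpp, the second of D6, or replicates 1 or 3 of D28. Tf did not pass (-0.90, SE 0.60, limma adjusted p = 0.196), with 0.69 in culture and 1.59 in vivo, but was called without the third D6 library. Germ cell, Sertoli cell and the other marker lists changed between these groups as well, and their part in these differences was not tested.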

How the results depend on the processing

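No value with a call turned its direction under any alternative. Of the log2 fold changes of the 7 genes under the alternatives, 3105 stayed on their side of the threshold, 52 lost and 41 gained the call. Some values without a call changed sign, among them Fth1 at D16 against 14.5 dpp (from -0.09 to 0.38). The 80 recomputed ratios test nothing, because leaving out 1 of 2 or 3 libraries cannot move a mean by the SD of its group. With the adjusted p-value alone, the number of calls over the 7 genes rose from 3 to 6 at D16, D22 and D28 against 14.5 dpp, from 9 to 20 for cultures against 8.5 dpp and from 1 to 3 for D28 against D6. That last number was 0 with no filter on low values, with a variance trend, with quantile normalization and with all groups in 1 fit. Leaving out single libraries gave 3 to 4 calls against 14.5 dpp, 17 to 18 against testes of the same age (18), 21 to 24 for in vivo ages (22), 8 to 10 for cultures against 8.5 dpp, 0 to 1 for D28 against D6 and 5 to 7 for the interaction (6). Calls of Slc40a1 are counted for testes of the same age, in vivo ages and the interaction. There it passed the filter only through groups where it was higher. The cause of the shifts between alternatives was not tested.

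Same-numbered libraries deviated together little (126 pairs, Pearson r across genes from -0.14 to 0.22, 11 above 0.1), although 19 of 29 libraries correlated best with their own number. With the replicate block, D28 against D6 had 0 calls among the 7 genes, Tf was called in the interaction, and the genes called at D6 against 14.5 dpp fell from 898 to 376.

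Over all genes, the adjusted p-value alone called 3867 genes at each of D16, D22 and D28 against 14.5 dpp (1371, 1480 and 1571 with the fold limit), 1755 at D6 against 14.5 dpp (898), 8445 at D16 against 24.5 dpp (5082), 4833 at 14.5 dpp (1841) and 8837 at 24.5 dpp (5677) against 8.5 dpp. Between cultures and 8.5 dpp it called 5557 (1861), 6701 (2550), 6866 (2712) and 6886 (2773) in order of time, and 2694 between D28 and D6 (646). Without 1 library of D6, 406 to 564 genes were called at D6 against 14.5 dpp, and without the second 14.5 dpp library 1200 at 14.5 against 8.5 dpp. Quantile normalization moved the share called higher at D6 against 8.5 dpp from 61.4% to 51.3%.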
